A study of Mus musculus with 22 samples.

Results

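Metal homeostasis was followed over 9 genes in 22 single mouse astrocytes whose calcium response to EtOH had been recorded before their RNA was collected. The genes were taken by symbol from the 23453 in the count table, without use of their values: the metallothioneins Mt1, Mt2 and Mt3, their activator Mtf1, the zinc exporter Slc30a1, the ferritin subunits Fth1 and Ftl1, the transferrin receptor Tfrc and the ferroxidase Cp. All 9 passed the filter of a read in at least 5 cells, as did 12719 of all genes. The cells came from cultures of cortex from C57BL/6 pups of postnatal day 0 to 1, which had been shaken and kept for 12 h in cytosine arabinoside against other cell types, and serum was withdrawn 24 h before imaging. Calcium was read with the dye Fluo-4 during EtOH, so that the NR cells were exposed too. There were 6 S-type cells (slow rise and slow decay), 6 T-type cells (transient rise), 5 M-type cells (mixed waveform) and 5 NR cells (no response). Each library was 1 cell whose animal and culture are not in the labels. A type was therefore treated as 1 sample, and differences between types are given as values without a test. The cell numbers used below are only names.

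Metallothioneins are small cysteine-rich proteins that bind zinc and copper. Zinc activates the transcription factor MTF1, the product of Mtf1, which binds metal response elements (MREs) in the promoters of Mt1, Mt2 and Slc30a1. Mt1 and Mt2 are inducible in many tissues and are abundant in astrocytes, while Mt3 is a form found mainly in brain. Iron enters cells through the transferrin receptor and is stored in ferritin, a shell of heavy (Fth1) and light (Ftl1) subunits, and ceruloplasmin (Cp) oxidises iron at the astrocyte surface for export. When iron is scarce, iron regulatory proteins bind iron-responsive elements (IREs). At the 5′ end of ferritin mRNA this blocks translation, and at the 3′ end of Tfrc mRNA it protects the message from decay.

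The promoter windows of Mt1, Mt2, Mt3 and Slc30a1 are shown with their MRE cores, the letters of sites that MTF1 can bind. A core alone does not set a gene apart, since 25.7% of all promoters hold at least 1. Each runs from 250 bases before the RefSeq start site to 50 bases from it on (GRCm38.p6, 300 bases, 5′ to 3′ on the gene's strand), with matches to TGCACNC or TGCGCNC on either strand in capitals.
Mt1 (chr8:94178839-94179138, + strand): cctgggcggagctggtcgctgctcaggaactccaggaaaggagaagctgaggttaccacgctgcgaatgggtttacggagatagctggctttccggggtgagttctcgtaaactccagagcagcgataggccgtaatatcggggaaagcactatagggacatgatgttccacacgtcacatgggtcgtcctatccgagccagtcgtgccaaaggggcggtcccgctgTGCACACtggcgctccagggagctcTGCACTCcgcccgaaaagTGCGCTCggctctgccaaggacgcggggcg
Mt2 (chr8:94172368-94172667, + strand): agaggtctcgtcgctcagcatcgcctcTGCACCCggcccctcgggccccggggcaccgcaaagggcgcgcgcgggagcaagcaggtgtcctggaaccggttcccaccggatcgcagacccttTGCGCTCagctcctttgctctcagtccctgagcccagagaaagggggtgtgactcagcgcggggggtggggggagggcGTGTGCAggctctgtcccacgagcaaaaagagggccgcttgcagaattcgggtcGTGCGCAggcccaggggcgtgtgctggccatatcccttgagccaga
Mt3 (chr8:94152357-94152656, + strand): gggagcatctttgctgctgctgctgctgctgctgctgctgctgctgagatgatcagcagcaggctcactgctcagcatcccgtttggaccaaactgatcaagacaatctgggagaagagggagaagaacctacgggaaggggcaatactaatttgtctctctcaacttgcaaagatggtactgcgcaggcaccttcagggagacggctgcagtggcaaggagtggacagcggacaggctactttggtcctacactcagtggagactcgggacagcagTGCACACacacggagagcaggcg
Slc30a1 (chr1:191906531-191906830, + strand): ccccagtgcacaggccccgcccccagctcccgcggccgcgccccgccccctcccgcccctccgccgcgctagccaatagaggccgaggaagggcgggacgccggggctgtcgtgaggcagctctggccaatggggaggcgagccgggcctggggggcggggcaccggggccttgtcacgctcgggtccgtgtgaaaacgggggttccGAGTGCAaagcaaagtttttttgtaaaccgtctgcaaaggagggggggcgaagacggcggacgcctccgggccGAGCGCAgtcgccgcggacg

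The Mt2 window held 4 cores, as many as 0.517% of the 32851 promoters of the same length hold, and the Mt1 window held 3 (at least 3 in 1.97%). Slc30a1 had 2 (at least 2 in 7.11%). Mt3 had 1 (at least 1 in 25.7%), and the same was true of Mt4, a metallothionein gene without a read in any cell. The first of the 2 Tfrc windows, not printed above, had 2 hits, as many as Slc30a1 (at least 2 in 7.11%). These hits overlapped each other on opposite strands. No core was found in the second Tfrc window or in the windows of Mtf1, Fth1, Ftl1 and Cp. A match is a stretch of letters and not a measured site, and sequence outside the window was not searched.

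**Figure D1:**
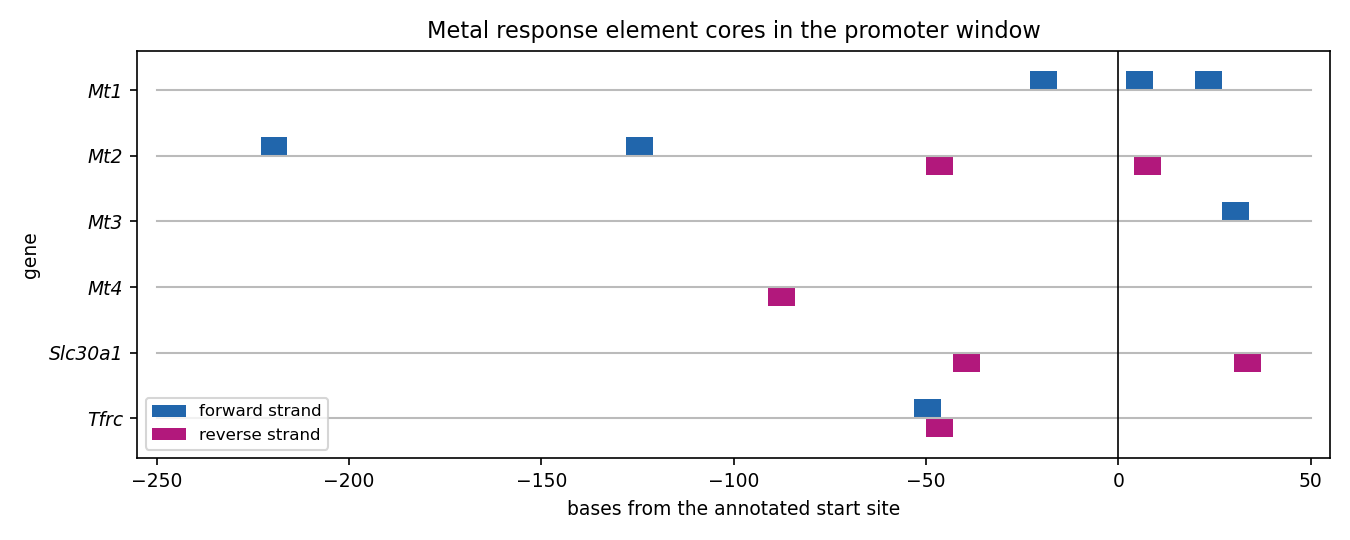
Positions of MRE cores (TGCACNC or TGCGCNC) in the promoter windows of 6 genes; the x axis gives bases from the RefSeq start site, which is 0, and colour gives the strand. Mt1 has its 3 cores between -23 and 26, while the 4 cores of Mt2 are spread from -223 to 10.

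The iron genes are marked in their mRNA instead. A search for the IRE hairpin (a bulged C, 5 bases, the loop CAGTGN, and 5 bases that pair with the first 5) in the GENCODE vM21 transcripts found it in the 5′ untranslated region of Fth1, Ftl1 and the iron exporter Slc40a1, as in 0.142% of 21901 coding genes, and 4 times in the 3′ untranslated region of Tfrc, where 0.589% of coding genes have it. The elements are shown at 29 bases with the loop in capitals, since both ferritin messages and the Tfrc message can be bound by the same proteins at opposite ends.
Fth1, 5′: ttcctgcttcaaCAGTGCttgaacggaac
Ftl1, 5′: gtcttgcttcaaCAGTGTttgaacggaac
Slc40a1, 5′: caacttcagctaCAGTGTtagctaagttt
Tfrc, 3′, from base 3321 of the transcript: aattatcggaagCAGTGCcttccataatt
Tfrc, 3′, from base 3700 of the transcript: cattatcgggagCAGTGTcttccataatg
Tfrc, 3′, from base 3765 of the transcript: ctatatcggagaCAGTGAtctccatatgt
Tfrc, 3′, from base 3812 of the transcript: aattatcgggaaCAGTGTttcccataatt

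In GRCm38 the 3 metallothionein genes lie in 1 cluster, Mt3 at chr8:94152607-94154146, Mt2 at chr8:94172664-94173568 and Mt1 at chr8:94179082-94180327. The others are spread over the genome, with Mtf1 at chr4:124802104-124849800, Slc30a1 at chr1:191906767-191913247, Fth1 at chr19:9980598-9985098, Ftl1 at chr7:45457944-45459884, Tfrc at chr16:32608920-32632794 and Cp at chr3:19957054-20009145. The counts are of exonic reads that aligned to 1 place only. Of the 75-base stretches of the longest coding Ftl1 transcript, 84.8% also occur in transcripts of 8 other genes, among them the pseudogenes Ftl1-ps1 and Ftl2-ps, so that the Ftl1 count is uncertain and its level is not comparable with that of Fth1. The share was 32.3% for Mt2, 8.56% for Mtf1 (with 1110065P20Rik), 7.64% for Slc30a1 (with 1700034H15Rik), 2.32% for Fth1 and 0% for Mt1, Mt3, Tfrc and Cp. Whether the counting used the strand is not given in the sources used here, and reads of overlapping genes cannot be told apart.

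Total reads ran from 2937786 to 22131076 a cell. Normalized counts are reads over a size factor (median of ratios), and the factors of 4 T-type cells were below those of all the other cells, the lowest being 0.183 in T-type cell 3 and 0.276 in T-type cell 2. T-type cell 2 had 12564138 reads but only 6319 genes with a read, the fewest of the 22 cells, and 12.95% of its reads on 10 genes, the largest share. The astrocyte marker list summed to 1285 to 9191 CPM (counts scaled to the total of the library) in every cell, led by the glutamate transporter Slc1a3 and the water channel Aqp4, and all 12 of its genes had reads in each type. The sum of the microglia list (Ctss and Cx3cr1 most read) was 0 to 81.2 CPM, with 64.8 to 81.2 in NR cells 1, 2 and 4. The endothelial list (Kdr, Flt1) had 0 to 37.4 CPM in all cells but T-type cell 5, where Kdr was high, and no read of Cldn5, Cdh5 and Tie1, and the ependymal and choroid plexus list (Foxj1, Ccdc153) 0 to 132 CPM without Ttr and Aqp1. Higher sums were seen for the oligodendrocyte lineage (Olig1, Olig2; 34 to 3329 CPM, without Sox10), neurons (Stmn2, Tubb3; 0 to 2048 CPM, without Slc17a7) and mural cells with fibroblasts (Acta2, Col1a2; 31.7 to 7410 CPM, without Rgs5). The last sum was above the astrocyte sum in S-type cell 5 (7410 beside 1669) and T-type cells 1 (4710 beside 2371) and 5 (4245 beside 1802). It was slightly above it in M-type cell 1 (1431 beside 1358) and NR cell 4 (1439 beside 1285). The neuron sum was above the astrocyte sum in S-type cell 2 (2048 beside 1591). The 20 genes of replication and mitosis, led by Pcna and Rrm2, took 10826 and 10813 CPM in S-type cells 1 and 2 and 7747 in T-type cell 5, against at most 2469 elsewhere. What these lists contribute to the metal genes was not tested beyond leaving out cells.

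**Figure D2:**
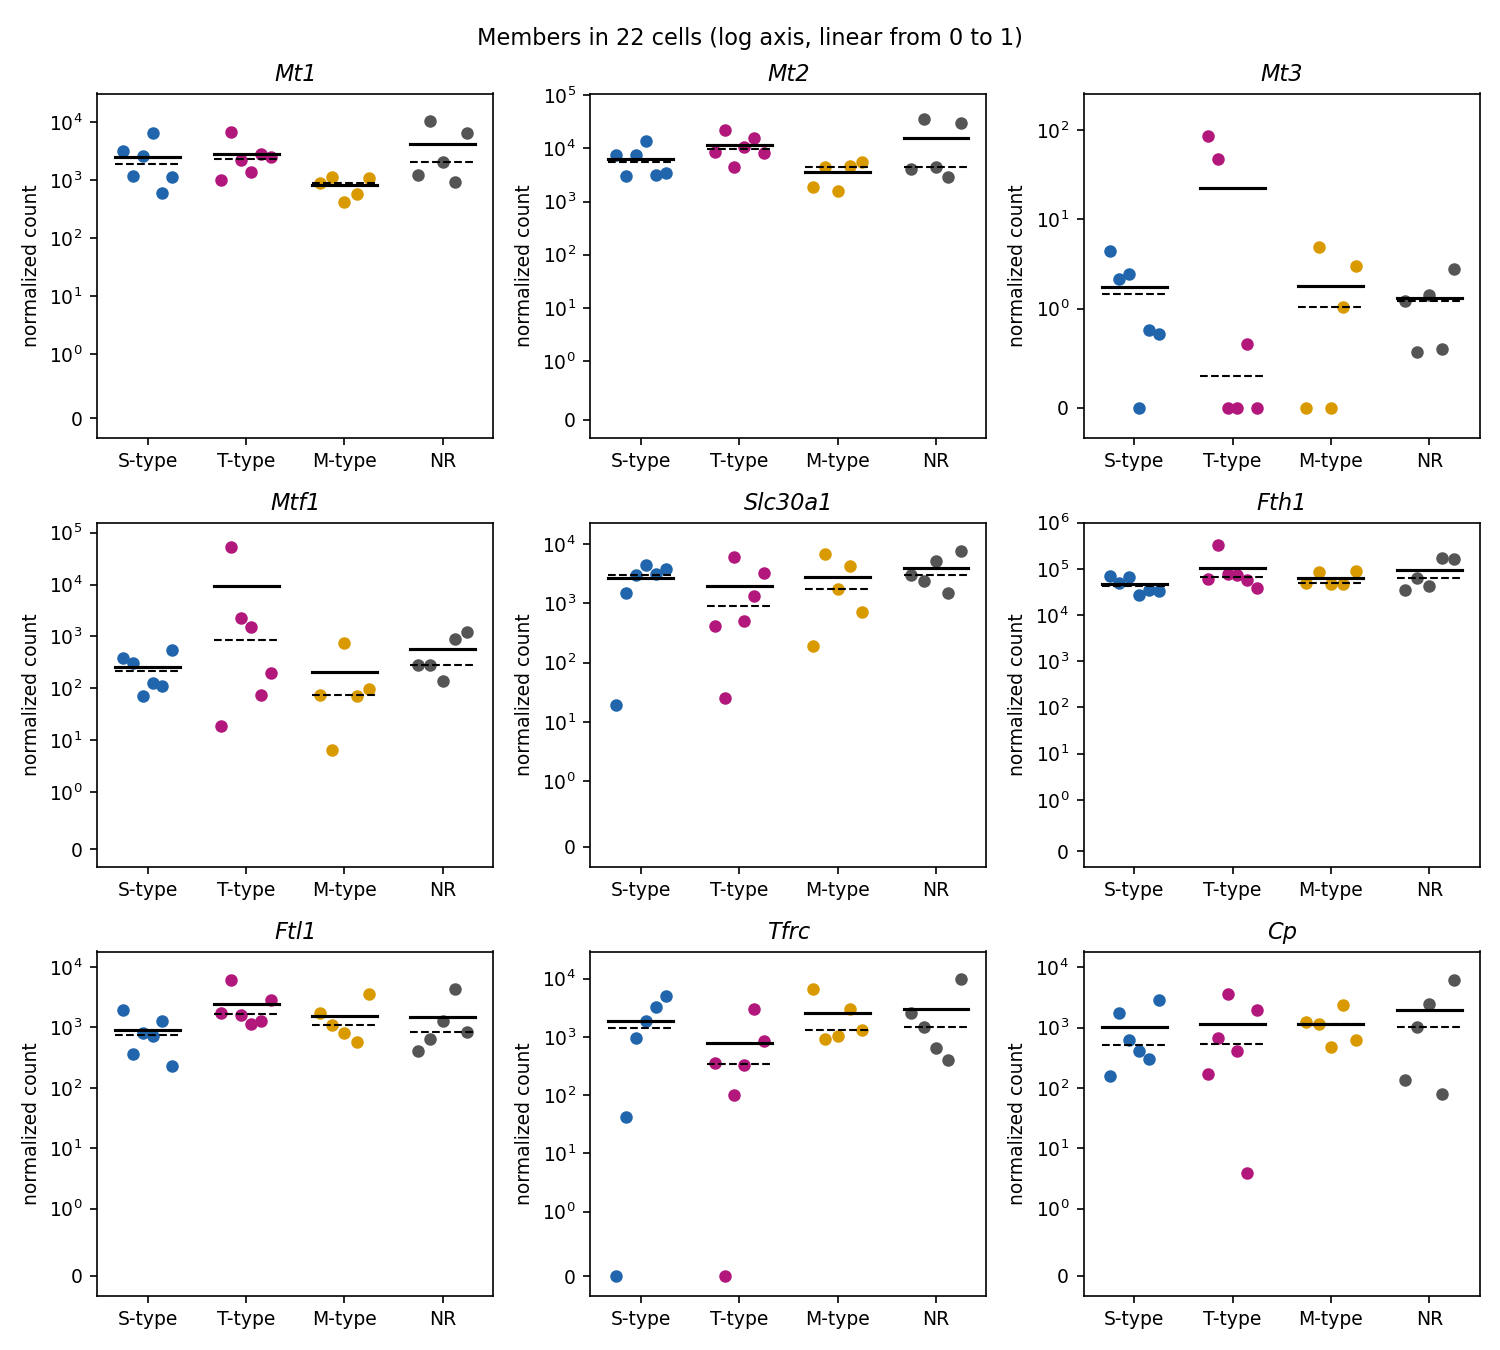
Normalized counts (log axis, linear from 0 to 1) of the 9 genes in 22 cells, with 1 point a cell, a solid line for the mean of the type and a dashed line for its median. The cells of every 2 types overlapped for each of the 9 genes (54 of 54 pairs of types), and single cells set several means, as T-type cell 2 at 52539 does for Mtf1.

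Per kilobase of exon, the mean normalized count over the 22 cells was 22555 for Fth1 and 15722 for Mt2, then 2105 for Mt1, 527.7 for Slc30a1, 318.6 for Tfrc, 316 for Mtf1, 135.3 for Cp and 6.81 for Mt3. Heavy-chain ferritin and metallothionein 2 were thus the most abundant of the members other than Ftl1. Tfrc and Mtf1 were apart by far less than the spread between cells. The place of Mtf1 rests on T-type cell 2, which had 52539 normalized counts of it. By the median over the 22 cells Mtf1 had 237.8 and Cp 645.1, with 8907 and 9566 bases of exon, so that Mtf1 came below Cp. Where reads fell along a transcript is not known from a count table, so this order is approximate. Ftl1 is left out of it because most of its sequence is shared with other genes.

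Mt1 was lowest in the M-type cells. The 5 M-type values were 903.4, 1160, 429.4, 571.2 and 1095 normalized counts, and the 5 NR values were 1249, 10560, 2105, 943.8 and 6479. All M-type cells were below 4 of the 5 NR cells, and only NR cell 4 fell within the M-type range. The level (mean over cells) of Mt1 was 831.7 in M-type and 4267 in NR, a log2 ratio of -2.36 with a 95% counting interval of -2.40 to -2.32, and the ratio lay between -2.61 and -1.69 when any cell was left out. With the median in place of the mean it was -1.22, since NR cells 2 and 5 held the high values. The S-type cells ran from 607.1 through a median of 1926 to 6589 and the T-type cells from 1019 through 2356 to 6785. These 2 types could not be ordered, with a log2 ratio of T-type to S-type of 0.13 that became -0.03 with TMM factors and, relative to the median of all genes, -0.13 with CPM.

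Mt2 followed the same cells. NR cells 2 and 5 had 35984 and 29867 normalized counts, above every responding cell, while NR cells 1, 3 and 4 had 4078, 4524 and 2932. M-type cells had 1885, 4473, 1592, 4584 and 5523, S-type cells 2979 to 13612 (median 5484) and T-type cells 4435 to 22242 (median 9723). The level was 15477 in NR against 3611 in M-type, a log2 ratio of M-type to NR of -2.10 (-2.37 to -1.52 without any 1 cell), but the medians of these 2 types, 4473 and 4524, gave -0.02. S-type was also below NR by the means (log2 ratio -1.28), and this came to -0.70 without NR cell 2, to -0.90 without NR cell 5 and to 0.28 with medians. The T-type level of 11601 lay 0.86 above S-type on the log2 scale, within 2-fold. The ratio reached 1.23 without S-type cell 4 and 1.02 without T-type cell 3. It was 0.64 without T-type cell 2, 0.44 with pooled reads and 0.6 with cells thinned to the smallest library. With CPM it was 0.25, or 0.7 relative to the median of all genes.

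Within a cell, the ratio of Mt2 to Mt1 reads does not depend on any scaling. It lay between 2.01 and 8.55 in all 22 cells, with a median of 3.27, so that Mt2 had more reads than Mt1 in every cell. The median was highest in T-type (4.33), then 3.86 for M-type, 3.26 for NR and 2.69 for S-type, and the ranges overlapped.

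Mt3 was barely detected. It had 113 reads in all, in 16 of the 22 cells, and 61 of them were in T-type cell 1 and 13 in T-type cell 2. T-type cell 5 had 1 read and the other 3 T-type cells had none, whereas all 5 NR cells had 1 to 3 reads, 5 of 6 S-type cells 1 to 5 and 3 of 5 M-type cells 2 to 7. The T-type mean of 22.28 normalized counts therefore lay above those of S-type (1.76) and NR (1.32), with log2 ratios of 3.66 and 4.08, while the T-type median was the lowest and turned these ratios to -2.19 and -1.91. Without T-type cell 1 they were 2.43 and 2.84.

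Mtf1 differed more between cells than any other member with a read in all 22, from 6.30 normalized counts in M-type cell 2 to 52539 in T-type cell 2. The S-type cells ran from 71.88 to 543.2 (median 215.3) and the NR cells had 286.5, 280.2, 135.2, 888.7 and 1209. T-type cells had 18.3, 52539, 2264, 1488, 72.58 and 195.3, and M-type cells 73.82, 6.30, 761.4, 71.59 and 98.5. The T-type cells thus held the highest 3 values beside some of the lowest, and 92.9% of their sum was in 1 cell. The log2 ratio of T-type was 5.20 to S-type and 4.07 to NR with that cell, and 1.66 and 0.50 without T-type cell 2. Leaving out T-type cell 3 as well, the other cell with a low size factor, gave 0.79 and -0.40. The gene 1110065P20Rik, with which Mtf1 shares sequence, was also high in T-type cell 2, at 10067 normalized counts against a median of 885.6. M-type lay below NR at -1.47 (-3.16 without M-type cell 3, -1.0 without NR cell 5), and 4 of 5 M-type cells were below every NR cell. S-type lay below NR at -1.13, which fell within 2-fold without S-type cell 3, 4 or 5 or NR cell 4 or 5, the last giving -0.65, and was -0.41 with medians.

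Slc30a1, the plasma membrane zinc exporter, had 1512 to 7679 normalized counts in the 5 NR cells. The S-type cells fell between 1501 and 4392 apart from S-type cell 1 at 19.53. T-type cells had 408.2, 25.39, 6087, 498, 1321 and 3234, and M-type cells 188.9, 6887, 1711, 4214 and 718.9. Thus 4 of the 6 T-type cells were below every NR cell. The log2 ratio of T-type to NR was -1.03, at the 2-fold limit, and ended inside the limit without T-type cell 1, 2, 4 or 5 or NR cell 3 or 5 (-0.92 to -0.66), and at -0.93 without the 3 cells rich in replication transcripts. Without T-type cell 3 it was -1.87.

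Fth1 was the most read member, with 1992605 reads in all. S-type cells ran from 27751 to 69142 normalized counts (median 41870) and M-type cells had 48737, 86041, 47249, 48133 and 91077. NR cells had 34644, 64561, 42386, 174021 and 164206, so that NR cells 4 and 5 stood above every S-type and M-type cell. T-type cells had 60007, 335744, 76941, 71967, 56615 and 38781. The T-type level of 106676 was 2.28-fold that of S-type (log2 ratio 1.19). The ratio ended within 2-fold under most other choices: 0.43 without T-type cell 2, 0.93 with TMM factors, 0.29 with CPM, 0.66 with medians, 0.16 with the pooled reads of a type and 0.91 with cells thinned to the smallest library. S-type was below NR at -1.04, which ended within 2-fold without S-type cell 4, 5 or 6 or NR cell 4 or 5 (-0.97 to -0.71), and with CPM, medians, pooled reads or thinning (-0.99 to -0.62). The log2 ratio of T-type to NR, 0.15, had the opposite sign with TMM factors (-0.23) and with CPM relative to the median of all genes (-0.24).

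Ftl1, whose count is uncertain because most of its sequence is shared, had 233 to 1965 normalized counts in S-type (median 764) and 1151 to 6056 in T-type (median 1701). It had 576.4 to 3557 in M-type and 406.7 to 4318 in NR. Of the 6 S-type cells, 4 were below every T-type cell. The log2 ratio of T-type to S-type was 1.46 (counting interval 1.42 to 1.51), and 1.15 with medians, but 0.99 without T-type cell 2, 0.74 with CPM and 0.87 with pooled reads. NR cell 4 held 57.8% of the NR sum, and without it the log2 ratio of T-type to NR rose from 0.72 to 1.64. Reads counted for Fth1 outnumbered those counted for Ftl1 by 13.4 to 198 times within a cell. Because only reads that aligned to 1 place were counted, this is not a ratio of the 2 messages. The medians ran from 45.8 in T-type to 85.2 in NR. The ranges of these 2 types overlapped, with 13.4 to 62.5 in T-type and 33.6 to 198 in NR.

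Tfrc was without a read in S-type cell 1 and T-type cell 2, whose libraries held 16063660 and 12564138 reads, while it reached 9697 normalized counts in NR cell 5. The other NR cells had 2593, 1457, 635.7 and 391.7, and M-type cells had 6529, 916.6, 1015, 3034 and 1290. S-type cells had 0, 42.27, 944.7, 1833, 3293 and 5016. T-type cells had 360.3, 0, 98.18, 328.3, 3041 and 835.2. Thus 4 of the 6 T-type cells were below every NR cell. The T-type level of 777.1 was lower than that of S-type (log2 ratio -1.26) and of NR (-1.93). The first came to -0.95 with pooled reads, to -0.55 without T-type cells 2 and 3, to -0.86 without T-type cell 2, to -0.64 without S-type cell 6 and to -2.50 without T-type cell 5, and the second to -0.71 without NR cell 5 and to -3.18 without T-type cell 5. The cells rich in replication transcripts were at both ends: S-type cells 1 and 2 had the lowest S-type values and T-type cell 5 the highest T-type value. Without these 3 cells the log2 ratios of T-type were -3.08 to S-type and -3.19 to NR.

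Cp had 3.89 to 6066 normalized counts, both ends being single cells (T-type cell 5 and NR cell 5). Its level was highest in NR at 1957, and S-type, T-type and M-type had 1014, 1133 and 1162. None of the 4 contrasts passed 2-fold with all cells, and the log2 ratios of the 3 responding types to NR were between -0.95 and -0.75. Without NR cell 5, which held 62% of the NR sum, the 3 ratios were 0.27, 0.12 and 0.32 for T-type, S-type and M-type, and without T-type cell 3, S-type cell 6 or M-type cell 4 they were -1.67, -1.59 and -1.17.

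Counted over the set, T-type against S-type had 4 of 9 members at least 2-fold higher (Mt3, Mtf1, Fth1, Ftl1), where 26.0% of all tested genes were, and 1 lower (Tfrc), where 32.2% were. This balance depended on the measure, and so did the shares of all tested genes, given in brackets. It was 3 higher and 1 lower by TMM factors (25.1% and 31.9%) and 2 and 1 by CPM (16.7% and 37.8%). It was 2 and 0 by pooled reads (16.4% and 39.9%) and 2 and 3 by medians (11% and 45.1%). Against NR, T-type had Mt3 and Mtf1 higher (2 of 9, background 28.6%) and Tfrc and Slc30a1 lower (2 of 9, background 32.4%). It had 2 higher and 3 lower by TMM factors (26.2% and 33.3%) or CPM (19.3% and 37.9%). By medians it had 3 and 3 (15.7% and 40%) and by pooled reads 2 and 4 (18.6% and 40.3%). S-type had none higher than NR (background 25.1%) and 3 lower (Mt2, Mtf1, Fth1; background 22.4%). M-type had none higher (background 19.8%) and 3 lower (Mt1, Mt2, Mtf1; background 28.1%). With 9 members each of these 8 counts lay within 3 genes of what the background share would give. That margin is too wide in a set of 9 to show agreement or difference. No member had the cells of 2 contrasted types apart, as 0.771%, 0.991%, 0.409% and 0.598% of tested genes had for T-type against S-type and for T-type, S-type and M-type against NR. The median log2 ratio of the members was 0.86, -0.42, -0.74 and -0.58 in these contrasts, beside -0.07, -0.05, 0.03 and -0.20 over all tested genes. The 3 contrasts with NR share the NR cells, among them NR cells 2 and 5.

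**Figure D3:**
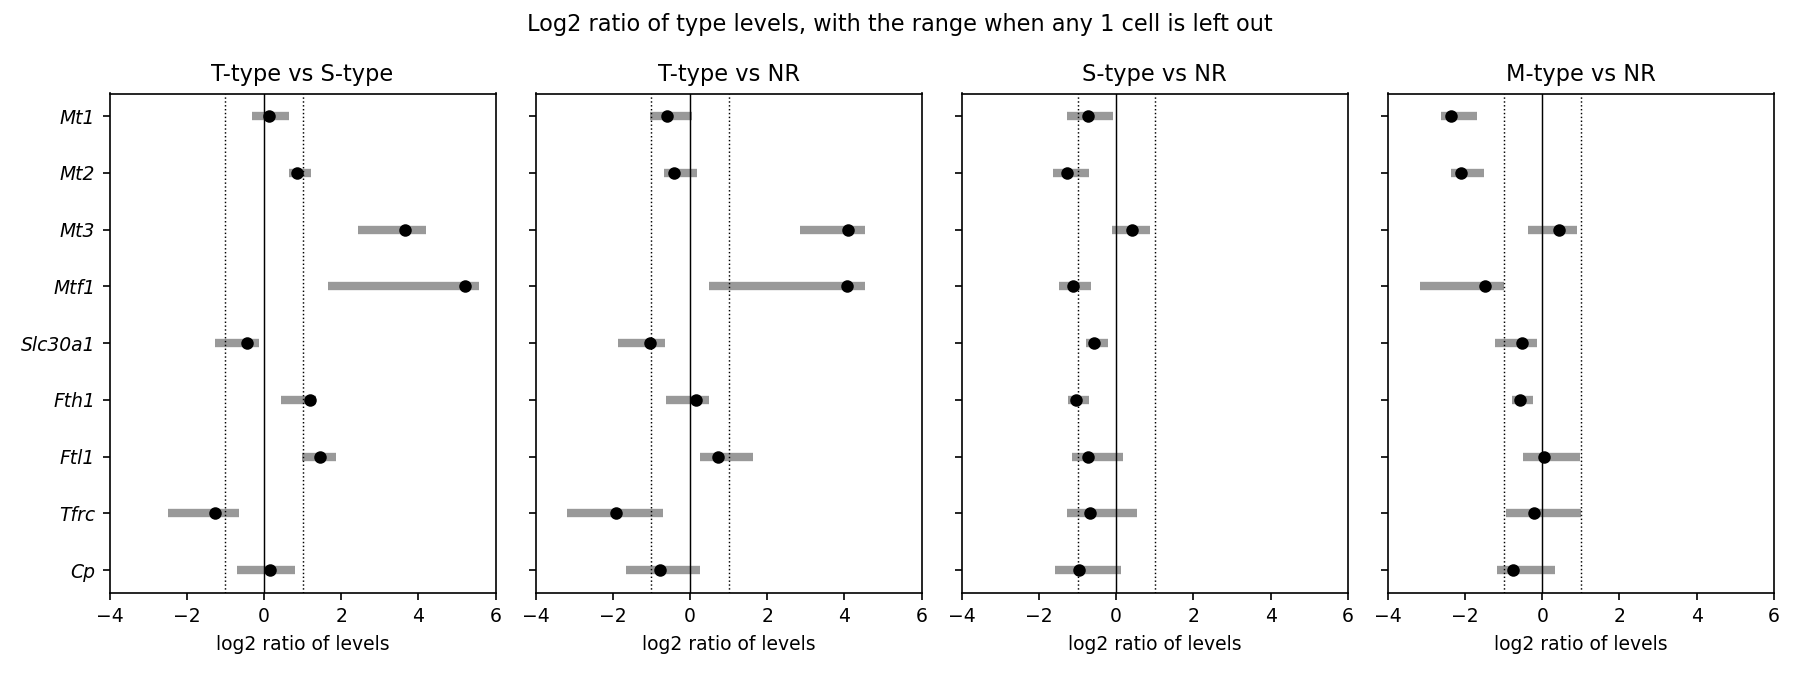
Log2 ratio of the levels of 2 types (x axis, points) for the 9 genes in 4 contrasts, with grey bars for the range when any 1 cell of the 2 types is left out and dotted lines at the 2-fold limits. Of the 15 ratios past 2-fold, 6 stay past it without each cell in turn: Mt1, Mt2 and Mtf1 in M-type against NR, Mt3 in T-type against S-type and NR, and Mtf1 in T-type against S-type. Leaving out 1 cell cannot show a ratio carried by 2 cells. With medians the Mt3 ratios are -2.19 and -1.91 and the Mt2 ratio is -0.02. The Mt1 ratio is -1.22 and the Mtf1 ratios are -1.96 and 1.97. Mtf1 in M-type against NR is at the limit, -1.0, without NR cell 5.

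Mt1 and Mt2 varied together from cell to cell. Over the 22 cells, Pearson's r of log2(normalized count + 1) was 0.87 and Spearman's rho 0.78, and r was 0.80 without the 2 cells farthest from the Mt1 median. For comparison, r with Mt1 over 6602 other genes detected in 20 or more cells had its percentile 5 at -0.39 and its percentile 95 at 0.32. The points of such a correlation share a size factor within each cell, and the types are mixed in it. Fth1 and Ftl1 had an r of 0.61 (rho 0.51), which was 0.32 without the 2 cells farthest from the Fth1 median. Tfrc and Slc30a1 had an r of 0.71, but rho was 0.35 and r 0.08 without S-type cell 1 and T-type cell 2, the cells in which Tfrc had no read and Slc30a1 was lowest. Mtf1 had an r of 0.34 with Mt1, 0.24 with Mt2 and -0.35 with Slc30a1, whose promoters its product binds, and 0.15, 0.20 and 0.16 without the 2 cells farthest from the median of Mt1, Mt2 and Mtf1. Fth1 against Tfrc had an r of -0.46, and -0.13 without the 2 cells farthest from the Fth1 median.

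**Figure D4:**
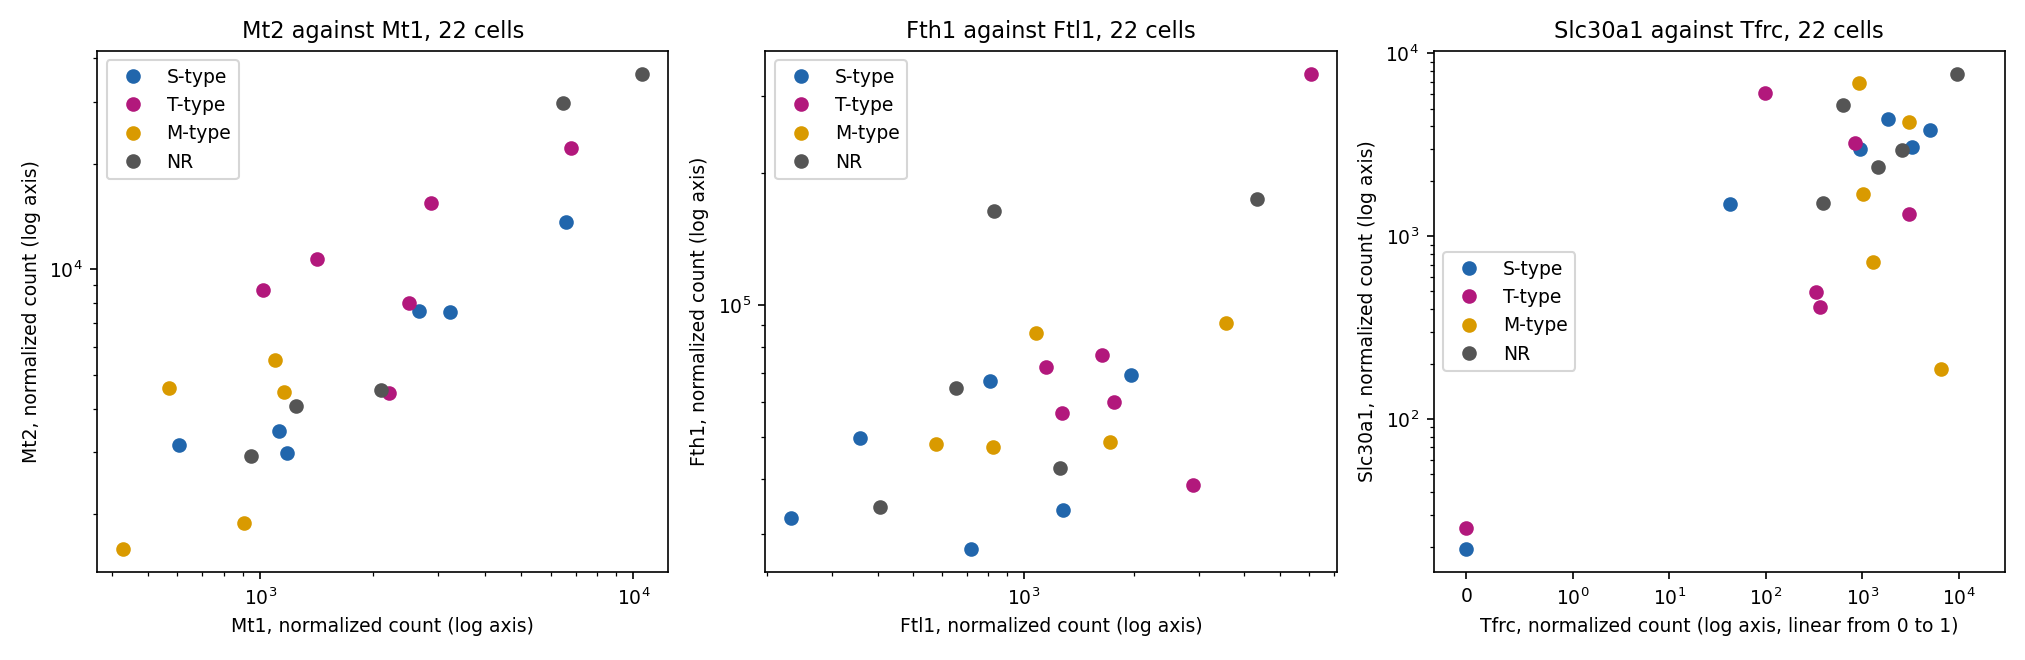
Normalized counts of 3 pairs of genes in 22 cells, with 1 point a cell and colour for the type; axes are logarithmic, and the Tfrc axis is linear from 0 to 1. Mt2 rises with Mt1 over the whole range (r = 0.87), whereas the relation of Slc30a1 to Tfrc rests on the 2 cells without a Tfrc read.

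**Figure D5:**
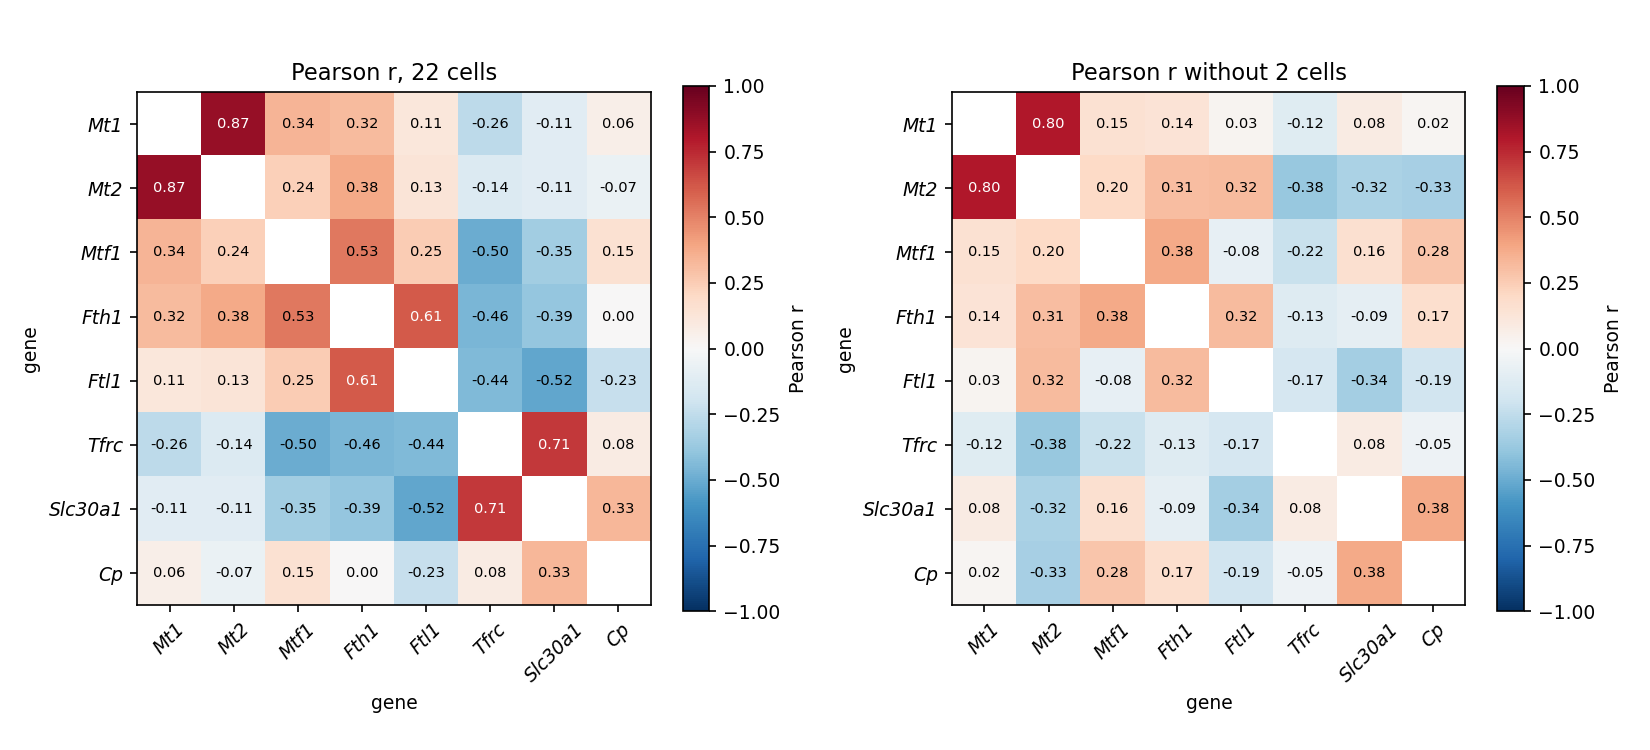
Pearson's r of log2(normalized count + 1) between the 8 members detected in 20 or more cells, over 22 cells (left) and without the 2 cells farthest from the median of the gene that comes first in the order of the axes (right). Mt1 with Mt2 keeps the highest r in both panels, 0.87 and 0.80.

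Among genes outside the set that were detected in 20 or more cells, those most like a member over the 22 cells were, for Mt1, the antioxidant enzyme Prdx6 (r = 0.71; 0.55 without 2 cells) and Chchd10 of mitochondria (0.65; 0.58), and, for Mt2, again Prdx6 (0.74; 0.68) and aldolase C, Aldoc (0.71; 0.65). Mtf1 was most like Snd1 (0.79; 0.50) and Dld (0.73; 0.45). For Fth1 they were Atp5j of ATP synthase (0.82; 0.68) and Txnl1 (0.78; 0.61), and for Ftl1 the peroxiredoxin Prdx5 (0.82; 0.74) and the clathrin adaptor subunit Ap2s1 (0.82; 0.76). Tfrc went with Tmx3 (0.90; 0.72) and Map1s (0.87; 0.64), Slc30a1 with Endod1 (0.90; 0.82) and Igsf8 (0.90; 0.69), and Cp with Sptbn1 (0.81; 0.63) and Mbtps1 (0.80; 0.62). An r of at least 0.7 was rare for the metallothioneins (0.0152% of genes for Mt1, 0.0303% for Mt2) and more common for Tfrc (1.36%) and Slc30a1 (1.23%).

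Of 64 further genes of zinc, iron, heme and copper handling, 49 had a read in at least 5 cells. T-type against S-type had 10 at least 2-fold higher and 17 lower (median log2 ratio -0.06), T-type against NR 9 and 16 (-0.37), S-type against NR 8 and 11 (-0.01) and M-type against NR 4 and 10 (-0.33). The count of higher genes was under the background share given above in all 4 contrasts, and the count of lower genes was near it in 3 and under it in M-type against NR. The balance moved with the scaling, and so did the shares of all tested genes. By CPM, T-type against S-type had 1 higher and 19 lower (16.7% and 37.8% of all tested genes). T-type against NR had 6 and 18 (19.3% and 37.9%). S-type against NR had 8 and 7 (23.6% and 21.3%), and M-type against NR 6 and 8 (20.2% and 25.5%). With medians T-type had 5 higher and 20 lower against S-type (11% and 45.1% of all tested genes) and against NR (15.7% and 40%). With pooled reads it had 4 and 18 against S-type (16.4% and 39.9%) and 6 and 20 against NR (18.6% and 40.3%).

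Zinc importers of the Slc39a family were 14, of which 10 were tested, and none was at least 2-fold higher in T-type than in NR while 4 were lower, beside 28.6% and 32.4% of all tested genes. In T-type against S-type 1 was higher and 4 were lower (26.0% and 32.2% of all tested genes). In S-type against NR 1 was higher and 4 were lower (25.1% and 22.4%). In M-type against NR none was higher and 2 were lower (19.8% and 28.1%). A count of this family alone was not planned. Slc39a9 had 30 reads in all 6 T-type cells, at 0.64 to 103.6 normalized counts, and 276.1 to 3655 in the 5 NR cells. The 2 types did not overlap, as for 0.991% of all tested genes, and this was 1 of the 49 genes of the list. The log2 ratio was -6.11 to NR and -5.04 to S-type, where the cells had 87 to 1339. Among zinc exporters, Slc30a4 was higher than NR in T-type (log2 ratio 2.59), S-type (1.89) and M-type (2.55, named after its values were seen). NR cells had 391.6, 859.3, 1.44, 66.39 and 2.78 of it, and M-type cells 638.6 to 2738. T-type cells ran from 3.63 and 32.37 to 4461 and overlapped with NR. The T-type ratio of Slc30a4 was 1.97 without T-type cell 6 and the S-type ratio 1.28 without S-type cell 4. Slc30a5, which loads zinc into the secretory pathway, was higher in T-type than in S-type at 1.51, and 0.67 without T-type cell 1. Its log2 ratio to NR was -0.37 in T-type and -1.88 in S-type. Slc30a7 was lower in S-type than in NR at -1.94, and -0.33 without NR cell 5. Slc30a6, chosen after its values were seen, was the gene of the list whose T-type and S-type cells did not overlap, with levels of 14.47 and 415 (log2 ratio -4.84). It was 1 of 49 genes, where 0.771% of all tested genes had these types apart.

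Among genes of iron and heme, heme oxygenase Hmox1, which frees iron from heme, was higher in T-type than in NR at 2.85. This was 1.69 without T-type cell 3. NR cells had 28.76 to 330.1 normalized counts of it and T-type cells 0 to 4271. S-type and M-type lay above NR as well, at 1.82 and 2.6 (given after the values were seen). Their cells ran from 8.67 to 1275 in S-type and from 1.4 to 2907 in M-type, and both overlapped with NR. Heph, a ferroxidase like Cp, had 1434 reads in S-type and 801 in M-type but 1 read each in T-type and NR. Its log2 ratio was 10.37 for S-type to NR (counting interval 7.89 to 15.68), 9.41 for M-type to NR (6.92 to 14.71) and -10.54 for T-type to S-type (-15.84 to -8.06). These ratios rest on that 1 read: with the floor of 3 reads in its place, when T-type cell 6 or NR cell 4 was left out, they were 8.28, 7.31 and -7.42. S-type cell 3 held 64.5% of the S-type sum of Heph and M-type cell 4 held 76.9% of the M-type sum. It had a read in 5 of 6 S-type cells but in 2 of 5 M-type cells. Trf, transferrin itself, was higher in M-type than in NR at 4.43, with 99.7% of the M-type sum in M-type cell 1, and -3.69 without that cell. Ncoa4, the receptor that sends ferritin to lysosomes, was higher in T-type than in S-type at 1.73, from 78 and 63 reads, and 0.66 without T-type cell 2. Slc25a28, a mitochondrial iron importer, was lower in M-type than in NR at -2.35 (-2.07 without M-type cell 2). The copper pump Atp7b had no read in T-type and 317 in NR, at least 72.6-fold lower against the floor of 3 reads over the type, but 93.9% of the NR sum was in NR cell 3. Without that cell the log2 ratios of Atp7b to NR went from -6.18 to -2.45 in T-type (both against the floor), from -5.45 to -1.72 in S-type and from -2.38 to 1.34 in M-type.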

How the data were processed

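RNA of single cells was amplified as antisense RNA in 2 rounds by the authors, who then sequenced stranded TruSeq libraries, aligned the trimmed reads with STAR (build GRCm38), assigned uniquely aligned exonic reads with VERSE and deposited raw counts, 1 column a cell. The submitters' processing notes name STAR and HTSeq; versions are not given in the sources used here. There were no molecular identifiers, so copies of 1 molecule made by amplification count as separate reads. The intervals cover the error of counting reads only, and not that of counting molecules or the spread between cells. The response type in the table matched the label for all 22 cells.

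Size factors were medians of ratios over 3670 genes with a read in every cell (NumPy 2.4.6, pandas 2.3.3, SciPy 1.17.1, Python 3.11.15). A level was the mean over cells of count/size factor, and where a type had no read, 3 reads in the whole type stood in (the floor). Genes needed a read in at least 5 cells. Intervals are exact binomial (Clopper-Pearson, 95%). No test was run between types. The members and lists were chosen with earlier results of these data known. All members are named; of the other metal genes, for each contrast and direction, the 2 largest ratios past 2-fold among genes whose mean level reached 10; of correlated genes, the 2 with the highest r per member; of marker lists, the 2 most read. Figures used matplotlib 3.10.9. Simulated data with known ratios were used to test the scripts' steps. Alternatives were TMM factors (edgeR 4.0.16, R 4.3.3), CPM, medians, pooled reads, a pseudocount of 1, cells thinned to the smallest library, no filter, a filter at a mean level of 10, and each cell left out in turn; 2 more, each leaving out several cells, were added after the data were seen.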

Additional observations from a re-analysis of the deposited data

Results flagged for a closer look

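Dixon's ratio (the gap of an extreme cell to the next, divided by the range of its type, on log2 of the normalized count plus 1) passed its 95% limit in 2 of 36 groups of member and type, where chance alone passes about 1 in 20. Fth1 in T-type had a ratio of 0.683, from T-type cell 2 at 335744 normalized counts beside 76941 in the next cell; in CPM that cell had 7368 against 6006 in T-type cell 4, the next by that scale. Slc30a1 in S-type had a ratio of 0.8, from S-type cell 1 at 19.53 normalized counts, or 22 reads of 16063660, beside 1501 in the next cell; the same cell had no Tfrc read and 10826 CPM on the replication and mitosis list, and a part of either in the Slc30a1 value was not tested.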

How the results depend on the processing

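Of the 15 member ratios past 2-fold, the number with the same direction and still past 2-fold was 14 with TMM factors, 12 with CPM, 8 with medians, 11 with pooled reads, 15 with a pseudocount of 1, 13 after thinning, 14 without the 3 cells rich in replication transcripts and 11 without T-type cells 2 and 3; the cause of the losses was not tested. Directions turned with medians for Mt3 in T-type against S-type (-2.19) and NR (-1.91) and for Mt2 in S-type against NR (0.28), and, without T-type cells 2 and 3, for Mtf1 in T-type against NR (-0.40). The count of members past 2-fold in T-type against S-type, 5, was 3 with CPM, 2 with pooled reads, 2 without T-type cells 2 and 3, and 2 to 7 when any 1 of the 22 cells was left out, T-type cell 2 giving the 2. In T-type against NR, 4 became 2 to 6, NR cell 5 giving the 2. In S-type against NR, 3 became 1 with medians and 0 to 4 without a cell, 1 without S-type cell 5 and 0 without NR cell 5. In M-type against NR, 3 became 3 to 4. The totals of other metal genes, higher and lower together, stayed within 1.5 times under every alternative. Their split moved, in T-type against S-type from 10 higher and 17 lower to 1 and 19 with CPM. The shares of all tested genes moved too, from 26% higher and 32.2% lower to 16.7% and 37.8%. With CPM the median log2 ratio of all tested genes moved from -0.07 to -0.45 against S-type and from -0.05 to -0.45 against NR (-0.96 and -0.70 with medians, -0.55 and -0.52 with pooled reads), and against S-type Fth1 was at 0.29 and Ftl1 at 0.74 with CPM, or 0.74 and 1.19 relative to that shift. Of Dixon's ratios, 8 of 36 passed on the linear scale in place of 2. No paired analysis was possible because the labels number no replicates. Mt3 had 9 to 75 reads a type, and its counting interval in T-type against S-type was 2.80 to 4.63.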
